A study of Homo sapiens with 17 samples.

Results

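The IFIT cluster on human chromosome 10 holds the interferon-induced genes IFIT1, IFIT2, IFIT3 and IFIT5, and these 4 genes of 38151 in the gene table used here are described in HCC1954 cells, an established line from a HER2-positive breast cancer. The genes were chosen by name, with earlier results of the same data known. The values that chose them were the peak cover of each gene's body or start in the Si1235 and NC1235 arms, so those values are given here as a description, without a test. IFIT proteins are built of tetratricopeptide repeats and are made in large amounts after type I or type III interferon, or after viral RNA is sensed. IFIT1 binds RNA whose cap lacks ribose methylation and keeps it from being translated, IFIT3 stabilises IFIT1 and strengthens that binding, IFIT2 binds IFIT1 and IFIT3 and has been linked to apoptosis, and IFIT5 binds RNA that carries a terminal triphosphate. Their promoters hold the interferon-stimulated response element (ISRE), which is bound by ISGF3, a transcription factor complex that interferon activates and that includes STAT2 and IRF9. Of the marks measured, the histone variant H2A.Z (H2AZ here) and the acetyl marks H3K27ac and H3K9ac lie at active gene starts and enhancers, and H3K36me3 is laid down over gene bodies by transcription.

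Cells of both arms were transfected with antisense oligonucleotides (ASOs) and fixed with formaldehyde 72 hours later, per the labels, and chromatin was then sequenced after immunoprecipitation (ChIP-seq). The Si1235 arm and the NC1235 arm each had 2 libraries of H2AZ, H3K27ac and H3K36me3 and 1 library of H3K9ac, and 1 further library came from the NC1235 arm by ChIRP (chromatin isolation by RNA purification), in which DNA near a chosen RNA is pulled down. What Si and NC abbreviate is not stated, and LINC01235, a long non-coding RNA, appears in the series title. ASO sequences were not used here, and an untransfected arm was not analysed here. All libraries come from this single line, and nothing states separate cultures for the replicates, so limma p-values reflect a spread between libraries that may be only technical.

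All values rest on the authors' peak lists. The H3K36me3 lists held 74826 and 81320 peaks in Si1235, against 67302 and 71041 in NC1235, so both Si1235 lists were longer. The total length inside H3K36me3 peaks overlapped between the arms. The H2AZ lists held 48694 and 42759 peaks in Si1235, against 51229 and 46554 in NC1235. Each Si1235 H2AZ list was thus shorter than the NC1235 list of the same number. The H3K27ac lists held 45549 and 46964 peaks in Si1235, against 44836 and 48391 in NC1235. The H3K9ac lists held 60035 in Si1235 and 59945 in NC1235. Read depth is not stated. The read background under weak peaks, solved from the authors' peak scores, was 1.24 and 0.875 reads in the Si1235 H3K36me3 libraries and 1.57 and 1.10 reads in the NC1235 ones, and replicate 2 had the lower value in each mark and arm where it could be solved. It could not be solved in the NC1235 H3K27ac libraries, where 0.733% and 1.87% of weak peaks gave whole read pileups against 99.9 to 100% in every other library. Of the HER2-positive epithelial markers ERBB2, GRB7, EPCAM, CDH1, KRT8, KRT18 and KRT19, 7 of 7 had H3K27ac cover at their starts. Of 7 markers of immune, endothelial and stromal cells, 3 had such cover (CD3E, CDH5 and COL1A1), and CD3E was covered over 57.3% and 52.4% in Si1235, against 23.2% and 24.1% in NC1235. The part of other cells, or of depth, in any result below was not tested. In bulk chromatin a mark on fewer cells and less of the mark per cell cannot be told apart.

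The genes run in the order IFIT2, IFIT3, IFIT1 and IFIT5 along chromosome 10 of hg38. IFIT2 spans chr10:89302046-89309271 (7226 bp), IFIT3 chr10:89327997-89340968 (12972 bp), IFIT1 chr10:89392623-89406487 (13865 bp) and IFIT5 chr10:89414568-89420997 (6430 bp). IFIT1B, a paralog, lies between IFIT3 and IFIT1 at chr10:89378056-89385205. IFIT1, IFIT3, IFIT5 and IFIT1B are on the plus strand. The annotated body of LIPA, which encodes lysosomal acid lipase and runs on the minus strand (chr10:89213572-89414679), covers IFIT2, IFIT3, IFIT1B and IFIT1 whole, and its outermost start lies inside the IFIT5 start window, so a peak there cannot be assigned to 1 gene by position alone.

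The promoters of the cluster are shown because they carry the element through which interferon acts and so place it beside the peaks described below. Each runs from 250 bases before to 50 bases after an annotated start on the plus strand, from RefSeq (GRCh38.p14, the same assembly as hg38). Capitals mark the ISRE core, searched on both strands as TTTCNNTTTC and its reverse complement GAAANNGAAA. IFIT1 is chr10:89392373-89392672, the outer IFIT3 start chr10:89327747-89328046, a second annotated IFIT3 start inside the gene chr10:89332279-89332578, IFIT5 chr10:89414318-89414617 and IFIT1B chr10:89377806-89378105.
IFIT1: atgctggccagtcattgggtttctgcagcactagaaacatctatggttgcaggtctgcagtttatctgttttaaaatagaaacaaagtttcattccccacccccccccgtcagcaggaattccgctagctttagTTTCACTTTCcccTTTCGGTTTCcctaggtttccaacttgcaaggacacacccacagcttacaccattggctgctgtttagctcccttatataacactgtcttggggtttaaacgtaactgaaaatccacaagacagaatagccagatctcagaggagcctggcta
IFIT3 gene start: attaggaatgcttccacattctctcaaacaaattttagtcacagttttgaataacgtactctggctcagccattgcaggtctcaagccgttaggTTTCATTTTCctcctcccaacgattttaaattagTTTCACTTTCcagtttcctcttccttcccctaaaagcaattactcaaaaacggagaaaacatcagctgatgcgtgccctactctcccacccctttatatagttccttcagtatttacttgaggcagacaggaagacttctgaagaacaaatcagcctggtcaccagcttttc
IFIT3 inner start: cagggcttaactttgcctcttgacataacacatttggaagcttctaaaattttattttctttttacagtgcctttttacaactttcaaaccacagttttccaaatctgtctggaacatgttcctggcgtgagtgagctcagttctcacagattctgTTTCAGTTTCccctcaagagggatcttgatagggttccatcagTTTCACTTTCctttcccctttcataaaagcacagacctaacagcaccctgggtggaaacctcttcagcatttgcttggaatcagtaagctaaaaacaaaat
IFIT5: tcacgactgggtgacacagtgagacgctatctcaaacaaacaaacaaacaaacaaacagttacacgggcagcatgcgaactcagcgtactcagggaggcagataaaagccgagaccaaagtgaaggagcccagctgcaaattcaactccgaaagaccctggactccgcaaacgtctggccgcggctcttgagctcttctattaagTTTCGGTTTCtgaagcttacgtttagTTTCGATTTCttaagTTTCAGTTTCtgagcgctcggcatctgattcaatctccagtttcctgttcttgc
IFIT1B: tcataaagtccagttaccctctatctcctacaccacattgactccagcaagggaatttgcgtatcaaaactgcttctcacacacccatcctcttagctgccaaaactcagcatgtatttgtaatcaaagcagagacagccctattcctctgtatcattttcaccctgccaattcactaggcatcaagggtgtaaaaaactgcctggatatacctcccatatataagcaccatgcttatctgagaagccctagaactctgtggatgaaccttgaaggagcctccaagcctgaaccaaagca

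IFIT1 held 2 ISRE cores, with first bases 116 and 103 bp before its start. IFIT3 held 2 at its gene start, 156 and 122 bp before it, and 2 at the inner start, 94 and 51 bp before it. IFIT5 held 3, at 45, 19 and 4 bp before its start, and IFIT1B held 0. The element is rare at this length, since 3.57% of 35116 promoters held at least 1 core, 0.259% at least 2 and 0.037% at least 3. A match describes letters and is no evidence of binding.

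H3K36me3 covered more of all 4 IFIT gene bodies in the Si1235 arm. Cover is the percent of the gene's length inside H3K36me3 peaks of 1 library, and a difference is in percentage points, Si1235 minus NC1235. At IFIT1, the cap sensor, cover was 58.3% and 48.7% in the Si1235 libraries, against 17.5% and 12.3% in the NC1235 libraries. Both Si1235 libraries lay well above both NC1235 libraries, with means of 53.5% ± 6.78 and 14.9% ± 3.68 (SD, n = 2 each) and a difference of 38.5 points. At IFIT2, the partner linked to apoptosis, cover was 49.1% and 46.6% in Si1235, against 35.0% and 16.8% in NC1235. The arms did not overlap there either, but NC1235 replicate 2 was much lower than NC1235 replicate 1, so the difference of 22.0 points was 14.1 between the libraries numbered 1 and 29.8 between those numbered 2.

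At IFIT3, which stabilises IFIT1, cover was 54.2% and 49.9% in Si1235, against 33.6% and 30.1% in NC1235. The libraries of each arm lay close together, and the arms differed by 20.2 points. At IFIT5, the triphosphate RNA sensor, cover was 56.2% and 54.8% in Si1235, against 42.4% and 31.4% in NC1235, a difference of 18.6 points. IFIT5 had the highest mean NC1235 cover of the genes and the smallest difference.

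**Figure D1:**
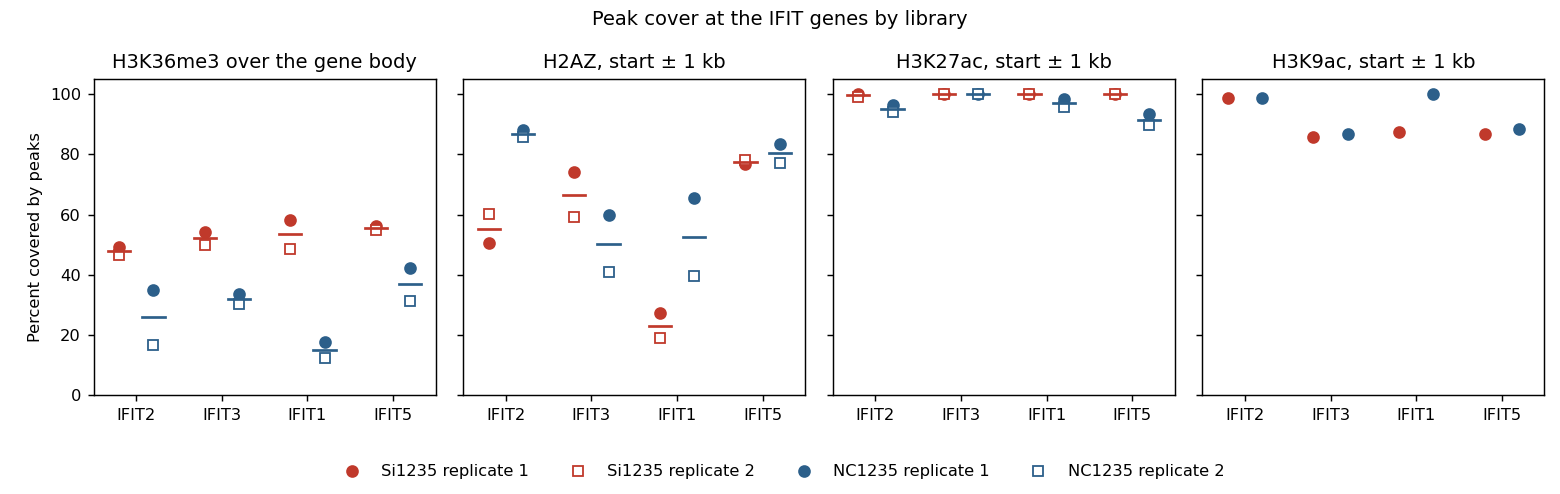
Percent of the H3K36me3 gene body, or of the H2AZ, H3K27ac and H3K9ac start window (1 kb either side), inside peaks, 1 point per library and a short line at each arm's mean, with Si1235 left of NC1235 for each IFIT gene. All Si1235 points for H3K36me3 lie above all NC1235 points, IFIT1 and IFIT2 lie lower in Si1235 for H2AZ, and the acetyl marks lie near full cover.

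In Si1235 the bodies of the genes were covered about alike, with means of 47.9% at IFIT2 to 55.5% at IFIT5. In NC1235 they were spread more widely, with means of 14.9% at IFIT1, 25.9% at IFIT2, 31.9% at IFIT3 and 36.9% at IFIT5. Each pair of neighbours in that NC1235 order had overlapping libraries. The genes' median difference was 21.1 points, beside 0.694 over the 8351 genes tested, with a 5th percentile of -9.27 and a 95th percentile of 13.8 points. A difference at least as large as that of IFIT1 was found at 0.168% of tested genes, and for IFIT2, IFIT3 and IFIT5 the shares were 1.31%, 1.81% and 2.32%. All 4 genes had arms that did not overlap with Si1235 higher, as did 20.3% of tested genes, and because these values chose the genes the count is given without a reading.

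In Si1235 the cover of IFIT1 and IFIT3 reached further toward their starts. In the part of IFIT1 before its midpoint, H3K36me3 peaks covered 52.2% and 33.3% in Si1235, against 0 and 0% in NC1235. The first peak began 2281 and 2710 bp from the IFIT1 start in Si1235, against 7405 and 9659 bp in NC1235. So the NC1235 libraries had no H3K36me3 peak in the upstream part of IFIT1, and both Si1235 libraries did. Beyond the midpoint, IFIT1 cover was 64.3% and 64.1% in Si1235, against 35.1% and 24.7% in NC1235.

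IFIT3 followed the same layout with less upstream cover. Before its midpoint, cover was 15.1% and 15.9% in Si1235, against 0 and 0% in NC1235, and beyond it 93.3% and 83.9% in Si1235, against 67.2% and 60.3% in NC1235. The first IFIT3 peak began 1384 and 3282 bp from the gene start in Si1235, against 8614 and 8371 bp in NC1235. Those first Si1235 peaks were short (357 and 274 bp) and did not rank high, with fold enrichments of 4.29 and 4.48. They lay within the top 73.0% and 68.85% of their lists. IFIT2 differed: its cover before the midpoint was 0.387% and 1.58% in Si1235, against 0 and 0% in NC1235, while beyond the midpoint it was 97.9% and 91.6% in Si1235, against 70.0% and 33.5% in NC1235. At IFIT5 the part beyond the midpoint was covered over 89.0% and 92.0% in Si1235, against 67.7% and 58.1% in NC1235, and the part before it over 23.4% and 17.7% in Si1235, against 17.1% and 4.60% in NC1235.

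**Figure D2:**
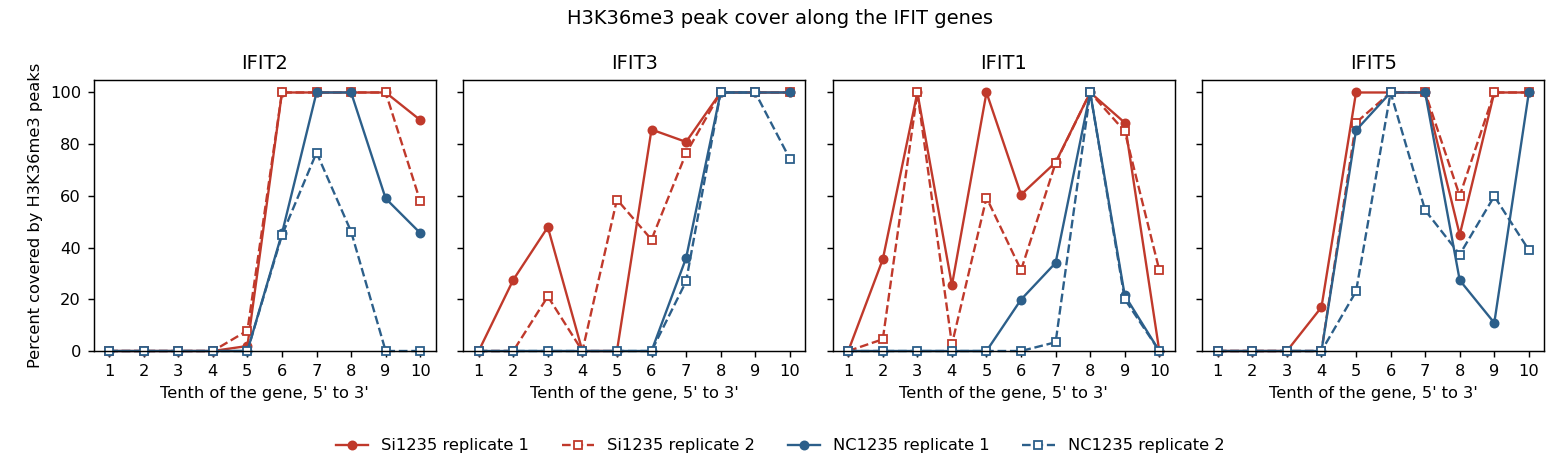
Percent of each of 10 equal bins of the gene body inside H3K36me3 peaks, from the start to the end of each IFIT gene, 1 line per library. In the first bins NC1235 lines lie at 0 at every gene, and Si1235 lines leave 0 nearer the start at IFIT1 and IFIT3.

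Within each list, the strongest H3K36me3 peak of IFIT1 had an authors' fold enrichment of 13.8 and 12.2 in Si1235 (within the top 4.20% and 4.88% of those lists) and of 6.32 and 8.41 in NC1235 (top 31.5% and 16.0%). That of IFIT3 had 11.4 and 16.2 in Si1235 (top 8.29% and 1.31%), and 11.7 and 12.1 in NC1235 (top 7.24% and 4.93%). Fold enrichment is relative to each library's own background and ranks peaks only within a list. The IFIT3 peak was thus among the stronger peaks of every list, also where its cover was lower.

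H2AZ was lower in Si1235 at the starts of IFIT1 and IFIT2, and not at those of IFIT3 and IFIT5. Start cover is the percent of the window 1 kb either side of the gene start inside peaks. IFIT1 start cover was 27.2% and 19.1% in Si1235, against 65.6% and 39.7% in NC1235, a difference of -29.6 points. IFIT2 start cover was 50.5% and 60.1% in Si1235, against 88.2% and 85.7% in NC1235, a difference of -31.6 points. In both genes the arms did not overlap, and the NC1235 libraries of IFIT1 were far apart from each other.

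IFIT3 start cover was 74.1% and 59.2% in Si1235, against 60.0% and 40.8% in NC1235, and IFIT5 start cover was 76.7% and 78.2% in Si1235, against 83.5% and 77.1% in NC1235. Both pairs of arms overlapped. The genes therefore did not share 1 direction in H2AZ, and their median difference of -16.2 points, beside 1.23 over the 17363 genes tested, stands for differences from -31.6 to 16.3 points. Arms that did not overlap with Si1235 lower were found at 2 of the 4 IFIT starts and at 10.8% of all tested starts, and differences at least as low as those of IFIT1 and IFIT2 at 0.443% and 0.299% of them. Within replicate numbers, the H2AZ differences were -38.5 and -20.7 points at IFIT1 and -37.7 and -25.6 points at IFIT2. Without NC1235 replicate 1 the IFIT1 difference was -16.6 points, and in windows of 2.5 kb either side the differences were -11.8 points at IFIT1 and -14.3 points at IFIT2.

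The lower H2AZ lay after the start, a division of the window that was chosen after the peaks had been seen. In the 1 kb after the IFIT1 start, H2AZ peaks covered 0 and 0% in Si1235, against 59.7% and 44.7% in NC1235. In the 1 kb after the IFIT2 start, they covered 25.4% and 35.7% in Si1235, against 100% and 95.9% in NC1235. Si1235 libraries thus had no H2AZ peak just inside IFIT1, where NC1235 libraries had peaks of 597 and 447 bp. The IFIT2 peak reached less far into the gene in Si1235 than in NC1235. In the 1 kb before the start, cover at IFIT1 was 54.3% and 38.1% in Si1235, against 71.5% and 34.7% in NC1235, and at IFIT2 it was 75.5% and 84.5% in Si1235, against 76.3% and 75.4% in NC1235, so the arms overlapped on that side of both genes. Among all tested genes, 9.16% had arms that did not overlap with Si1235 lower after the start (17.8% with Si1235 higher), and 10.8% before it.

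The peak edges show the same. At IFIT2 a single H2AZ peak crossed the start in every library, and it began 755 and 845 bp before the start in Si1235, against 763 and 754 bp before it in NC1235. It ended 253 and 356 bp after the start in Si1235, against 1161 and 958 bp after it in NC1235, so the upstream edges lay close together and the downstream edges did not. At IFIT1 every library had an upstream H2AZ peak, which ended 177 and 165 bp before the start in Si1235, against 138 and 171 bp before it in NC1235. A second IFIT1 peak, 100 to 696 bp and 91 to 537 bp after the start, was present in the NC1235 libraries and in neither Si1235 library. It did not rank high, with fold enrichments of 4.72 and 7.74 (within the top 81.1% and 49.4% of those lists). A peak missing from a list past a threshold does not show that the mark was absent. Both ISRE cores of IFIT1, capitalised in the sequence above, lay in the gap between the upstream and the second peak, under no H2AZ peak in any library.

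**Figure D3:**
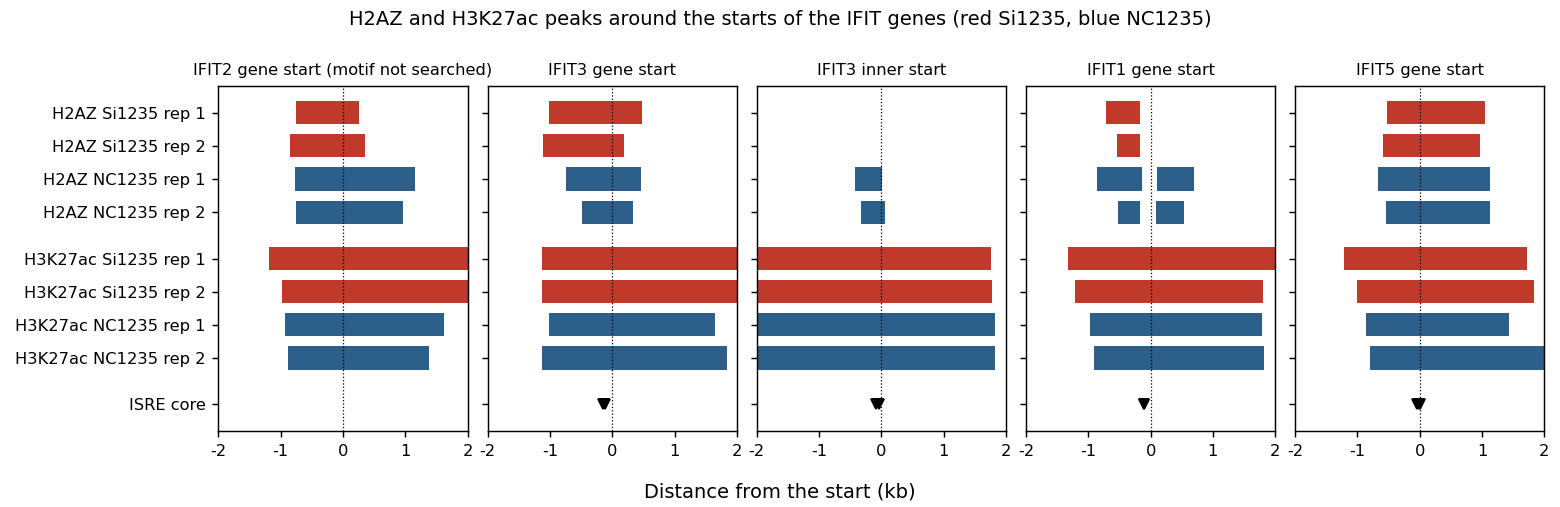
Peaks of each library around each IFIT start, as bars by distance from the start in kb, with Si1235 rows above NC1235 rows and triangles at ISRE cores (the motif was not searched at IFIT2). H2AZ bars of IFIT1 and IFIT2 reach further past the start in NC1235, and those of IFIT3 reach further before it in Si1235.

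At IFIT3 the H2AZ change lay on the other side. In the 1 kb before the gene start, H2AZ covered 100% and 100% in Si1235, against 74.3% and 47.9% in NC1235, a difference of 38.9 points. The peak began 1014 and 1110 bp before the start in Si1235, against 743 and 479 bp in NC1235, and the arms did not overlap, as was the case with Si1235 higher at 17.0% of tested genes on that side. After the start the arms overlapped, with 48.2% and 18.3% in Si1235, against 45.6% and 33.6% in NC1235. The inner IFIT3 start at chr10:89332529, which lies 4532 bp into the gene, had no H2AZ peak in Si1235 and 1 in each NC1235 library, with window cover of 0 and 0% in Si1235, against 21.3% and 19.6% in NC1235. Those NC1235 peaks covered both ISRE cores of the inner start (chr10:89332106-89332531 and chr10:89332197-89332587). They did not rank high either, with fold enrichments of 6.81 and 5.53 (within the top 54.8% and 71.9% of those lists). The cores at the outer IFIT3 start lay under an H2AZ peak in all 4 libraries.

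IFIT5 differed little in H2AZ. In the 1 kb after its start, cover was 100% and 97.4% in Si1235, against 100% and 100% in NC1235, and its peak ran from 534 and 590 bp before the start to 1046 and 973 bp after it in Si1235, against 669 and 542 bp before to 1125 and 1126 bp after in NC1235. All 3 ISRE cores of IFIT5 lay under an H2AZ peak in all 4 libraries. Because the outermost LIPA start lies in that window, the peak may belong to LIPA, IFIT5 or both.

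H3K27ac filled the IFIT start windows almost completely in both arms, which leaves little room for a difference in cover. IFIT1 start cover was 100% and 100% in Si1235, against 98.4% and 95.6% in NC1235. IFIT2 start cover was 100% and 99.2% in Si1235, against 96.3% and 94.1% in NC1235. IFIT5 start cover was 100% and 100% in Si1235, against 93.4% and 89.7% in NC1235. At these genes the arms did not overlap but differed by 3.00, 4.40 and 8.48 points, and IFIT3 was at 100% in every library. With Si1235 higher, arms did not overlap at 3 of 4 IFIT starts and at 23.3% of the 15414 tested, and the median difference of 3.70 points stood beside 0 over all of these.

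The differences lay before the start at all of these genes, since the 1 kb after it was covered over 100% in every library. Before the IFIT5 start, H3K27ac covered 100% and 100% in Si1235, against 86.8% and 79.3% in NC1235. Peak lengths showed more than the windows. The peak over the IFIT2 start was 4203 and 3197 bp long in Si1235, against 2551 and 2261 bp in NC1235. The outer and inner IFIT3 starts lay in 1 peak of 7422 and 7444 bp in Si1235, whereas NC1235 had a peak at each, of 2656 and 4325 bp in replicate 1 and of 2968 and 4220 bp in replicate 2. The peak over the IFIT1 start was 3647 and 3018 bp long in Si1235, against 2757 and 2728 bp in NC1235, and that over the IFIT5 start was 2953 and 2843 bp long in Si1235, against 2294 and 2937 bp in NC1235. Arms overlapped in length at IFIT5 and not at the other genes. How often peak lengths lie apart over all starts was not computed, so these lengths are given without a reading. As given above, weak-peak pileups were not whole numbers in the NC1235 H3K27ac libraries, unlike the Si1235 ones, and the part of that in these lengths was not tested.

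H3K9ac, with 1 library per arm, has no replicate check. Its start cover was 87.5% in Si1235 and 100% in NC1235 at IFIT1, 98.7% in Si1235 and 98.7% in NC1235 at IFIT2, 85.7% in Si1235 and 86.6% in NC1235 at IFIT3, and 86.7% in Si1235 and 88.4% in NC1235 at IFIT5. None of these genes passed a difference of 20 points, which 3.10% of the 17822 genes with cover passed with Si1235 higher and 4.74% with Si1235 lower. The H3K9ac peaks at the IFIT starts were shorter in Si1235. At IFIT2 the peak was 3117 bp long in Si1235 and 4152 bp in NC1235, at IFIT1 3046 bp in Si1235 and 4058 bp in NC1235, and at IFIT5 3337 bp in Si1235 and 6187 bp in NC1235. At IFIT3 both starts lay in 1 peak of 7141 bp in NC1235 and in separate peaks in Si1235, which is the reverse of the H3K27ac layout.

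Along the 118.95 kb from the IFIT2 start to the IFIT5 end, H3K36me3 lay over the 4 genes and hardly between them. Between IFIT2 and IFIT3 its peaks covered 0 and 0.0801% in Si1235, against 0 and 0% in NC1235, and between IFIT1 and IFIT5 0% in every library. Between IFIT3 and IFIT1 they covered 2.14% and 1.89% in Si1235, against 1.64% and 1.07% in NC1235, where a peak runs past the IFIT3 end. IFIT1B had no peak of H2AZ, H3K27ac, H3K9ac or H3K36me3 in its body or window in either arm. In the 88474 bp of LIPA before IFIT2, H3K36me3 covered 0 and 0.487% in Si1235, against 1.07% and 0.600% in NC1235. The H3K36me3 cover of the whole LIPA body, 9.83% and 8.96% in Si1235, against 5.53% and 3.94% in NC1235, thus came mostly from peaks over the IFIT genes that LIPA spans. Of the neighbours outside the cluster, KIF20B, a mitotic kinesin, had overlapping arms at 35.8% and 30.1% in Si1235, against 43.0% and 32.8% in NC1235, and STAMBPL1, ACTA2, FAS, SLC16A12 and PANK1 had H3K36me3 cover under the minimum of 5%.

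Merging the peaks of the 4 libraries of a mark gave 12 H3K36me3 regions in that stretch, of which 5 were present in all libraries, 3 in both Si1235 libraries only and 0 in both NC1235 libraries only. The Si1235 regions were 2 in IFIT3 (chr10:89331113-89331734 and chr10:89334669-89336041) and 1 in IFIT1 (chr10:89394904-89396893). Of the 10 H2AZ regions, 4 were in all libraries, 2 in both NC1235 libraries only (at the inner IFIT3 start, and just after the IFIT1 start) and 1 in both Si1235 libraries only, at chr10:89374616-89375006 between IFIT3 and IFIT1B. Of the 10 H3K27ac regions, 6 were in all libraries and 1 in both Si1235 libraries only, at chr10:89351231-89352158. Genome-wide, 4.48% of 81471 H3K36me3 regions were in both Si1235 libraries only and 2.80% in both NC1235 libraries only. For H2AZ these shares were 2.54% and 4.38% of 63461, and for H3K27ac 3.92% and 5.77% of 52015.

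**Figure D4:**
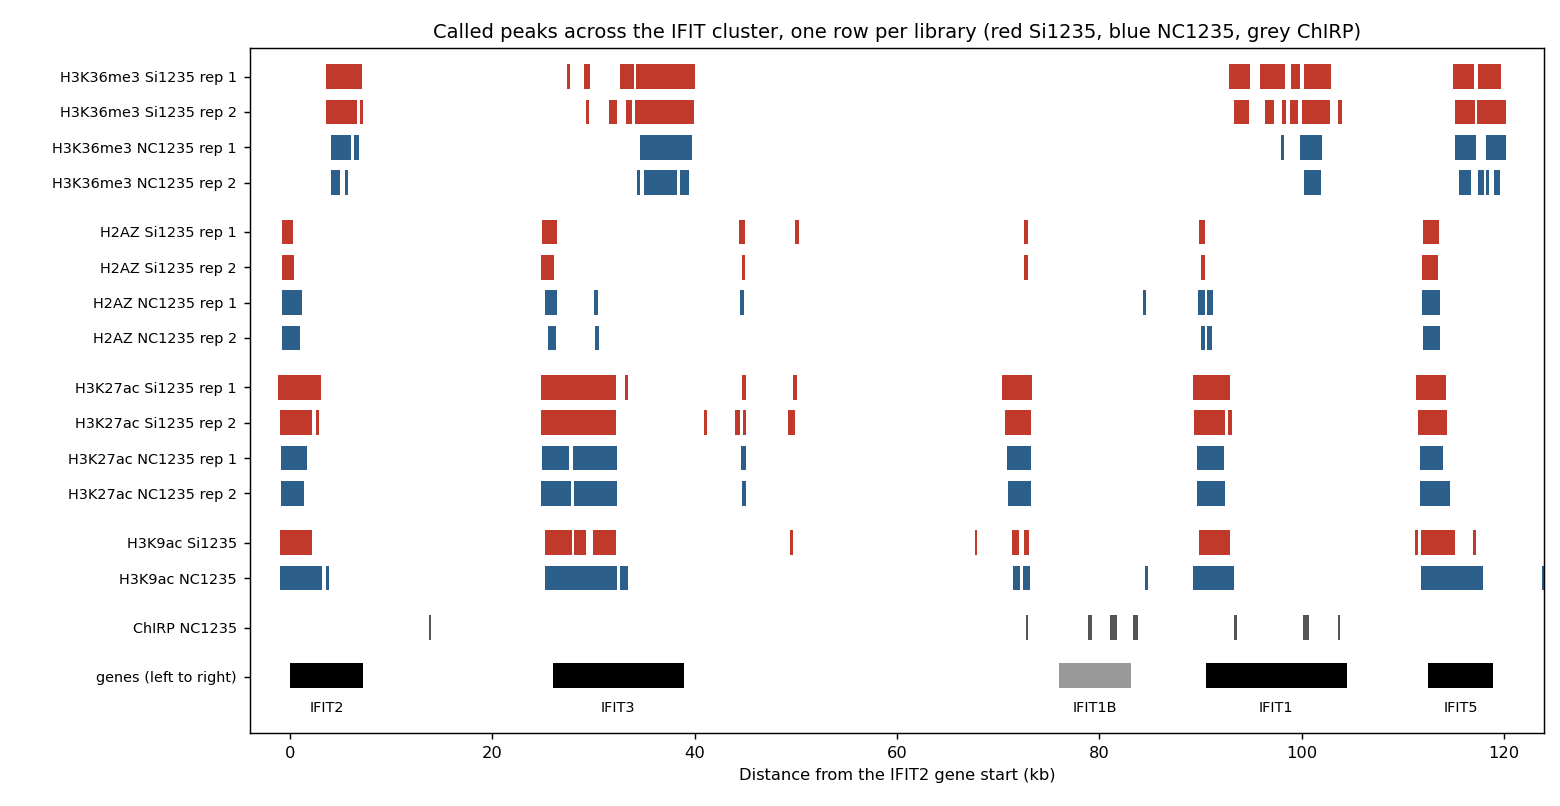
Peaks of each library of each mark along the cluster, in kb from the IFIT2 start, with Si1235 rows above NC1235 rows and gene bodies in the bottom row. H3K36me3 bars sit over IFIT2, IFIT3, IFIT1 and IFIT5 and reach further upstream in Si1235 at IFIT3 and IFIT1.

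The ChIRP library, from 1 NC1235 sample with no control library, had 3 peaks in IFIT1, covering 8.21% of its body, and none in IFIT2, IFIT3 or IFIT5. Of 18727 genes, 69.0% had a ChIRP peak in the body, the median cover was 1.49%, and 3.88% had at least the cover of IFIT1. No IFIT start window held a ChIRP peak, and 12.6% of 14899 start windows did. IFIT1B had 2 peaks covering 14.4% of its body. A ChIRP peak at chr10:89374768-89375040 overlapped the H2AZ region that both Si1235 libraries had and NC1235 lacked. The same site lay under an H3K27ac peak in every H3K27ac library and under an H3K9ac peak in both arms. How often ChIRP peaks overlap such regions was not computed, so this overlap is given without a reading. The captured RNA is not named in the labels.

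The other genes of the pathway were taken from lists of RNA sensors and inducers, interferon receptors with their kinases, ISGF3 factors and interferon-induced effectors, 58 genes in all without the IFIT genes. These lists were drawn up with earlier results of the same data known. In limma fits over all genes, 0 of 44 tested H3K36me3 bodies and 0 of 48 tested H2AZ starts passed an adjusted p of 0.05, as 0% of all genes did. At an unadjusted p under 0.05, 22 H3K36me3 bodies were higher and 1 lower in Si1235, beside 5.51% and 2.43% of all tested genes. By the same measure 2 H2AZ starts were higher and 7 lower, beside 3.95% and 1.99%. In H3K27ac 1 of 51 passed, IRF3, an inducer of interferon genes, with 100% and 100% in Si1235, against 96.9% and 96.7% in NC1235 (3.23 points, limma adjusted p = 0.0369), where 0.221% of all genes passed in each direction. Both Si1235 values of IRF3 sat at the ceiling of 100% and so could show no spread, which lowers that p-value for a small difference. No pathway gene passed in H3K27ac with a replicate term, with windows of 0.5 or 2.5 kb, or without Si1235 replicate 2. Which pathway genes passed in H3K27ac, and in which direction, changed with the library left out. With quantile normalization STING1 passed in place of IRF3. With quantile normalization 10 H3K36me3 bodies passed, and with each library left out in turn 1 to 16, all with Si1235 higher.

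The effectors, which are made by interferon-treated cells as the IFIT genes are, had the largest median H3K36me3 difference of the 4 lists. Of 29 tested effectors, 26 had H3K36me3 arms that did not overlap with Si1235 higher and 0 with Si1235 lower, beside 20.3% and 13.7% of all genes, and their median difference was 17.0 points, beside 0.694 over all genes. Genes were tested where mean cover over both arms reached 5%. OASL (0 and 0% in NC1235), USP18 and UBA7 (NC1235 means of 4.65% and 4.08%) passed that filter only through Si1235. The count includes them and is no independent support. HERC5, the ligase that attaches ISG15, had body cover of 64.6% and 60.1% in Si1235, against 13.0% and 11.3% in NC1235 (50.2 points, limma adjusted p = 0.0832). OAS2, a sensor of double-stranded RNA that makes oligoadenylates, had 73.9% and 70.2% in Si1235, against 32.7% and 23.2% in NC1235 (44.1 points, limma adjusted p = 0.128). DDX60L, a helicase of the interferon response, had 67.1% and 60.5% in Si1235, against 27.4% and 19.0% in NC1235 (40.7 points, limma adjusted p = 0.128). In these named effectors the NC1235 libraries lay far below the Si1235 libraries, and none passed the adjusted threshold.

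For H2AZ, 10 of 29 tested effectors had arms that did not overlap with Si1235 lower and 4 with Si1235 higher, beside 10.8% and 20.9% of all genes, and the median difference was -2.48 points. OAS3, another oligoadenylate synthetase, had 31.7% and 0% of its start covered in Si1235, against 75.8% and 51.1% in NC1235 (-47.6 points, limma adjusted p = 0.833). IFI44 (-63.7 points) and SAMD9 (-60.1 points) had the largest H2AZ differences of the lists, each with limma adjusted p = 0.535. For H3K27ac, 12 of 32 tested effectors had arms that did not overlap with Si1235 higher and 0 with Si1235 lower, beside 23.3% and 17.7% of all genes. The start of RSAD2, which encodes the antiviral enzyme viperin, was covered over 100% and 75.4% in Si1235, against 35.6% and 42.2% in NC1235 (48.8 points, limma adjusted p = 0.254). CMPK2, its neighbour, differed by 22.7 points and HERC5 by 20.9 points, also short of the threshold.

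Among the upstream steps of the pathway, sensors and inducers had 4 of 8 tested H3K36me3 bodies with arms that did not overlap and Si1235 higher (RIGI, IFIH1, MAVS and IRF3) and 0 with Si1235 lower, beside 20.3% and 13.7% of all genes. Of 4 tested receptors and kinases, JAK1 was on the higher side and IFNAR1 on the lower, with means of 34.3% in Si1235 and 49.5% in NC1235 at IFNAR1. IRF9 had H3K36me3 arms that did not overlap, with means of 79.7% in Si1235 and 73.7% in NC1235. At H2AZ starts, 4 of 11 sensors and inducers had arms that did not overlap with Si1235 higher and 1 with Si1235 lower, and 2 and 0 of 6 receptors and kinases did, beside 20.9% and 10.8% of all genes. STAT2 had a mean H2AZ start cover of 34.5% in Si1235 and 61.0% in NC1235 (limma adjusted p = 0.703), and IKBKE, a kinase that activates interferon-inducing factors, 76.8% in Si1235 and 63.5% in NC1235 (limma adjusted p = 0.792). The effectors' difference from the upstream lists was not tested.

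Setting both marks together, 7684 genes were tested for H2AZ and H3K36me3. With arms that did not overlap in either mark and differences of at least 20 points, 4 of them (0.0521%) had lower H2AZ at the start and higher H3K36me3 over the body in Si1235, and these were IFIT1, IFIT2, the interferon-induced IFI44L and S100P, a calcium-binding protein. In 3 genes (0.039%; L1CAM, LIF and TGM1) both marks were higher, and in 0 was H3K36me3 lower with H2AZ in either direction. IFIT3 and IFIT5 were not among these, since their H2AZ arms overlapped. The values that chose the IFIT genes enter these counts, so they are given without a reading. Membership also hangs on the 20-point cut and on single libraries. Without NC1235 replicate 2 the IFIT2 H3K36me3 difference was 12.8 points, and without NC1235 replicate 1 the IFIT1 H2AZ difference was -16.6 points. SAMD9, with arms apart in both marks, had -60.1 points in H2AZ and 18.7 in H3K36me3, short of the cut. Of the 26 effectors tested for both marks, all 26 had a higher mean H3K36me3 cover in Si1235 and 17 of them a lower mean H2AZ cover, a combination found in 20.8% of all genes tested for both. The share of all genes with higher mean H3K36me3 alone was not computed. The lower H2AZ means ran from -63.7 points at IFI44 to -1.05 at CMPK2 and -0.875 at PLSCR1, where the arms overlapped. The 17 are therefore given without a reading.

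**Figure D5:**
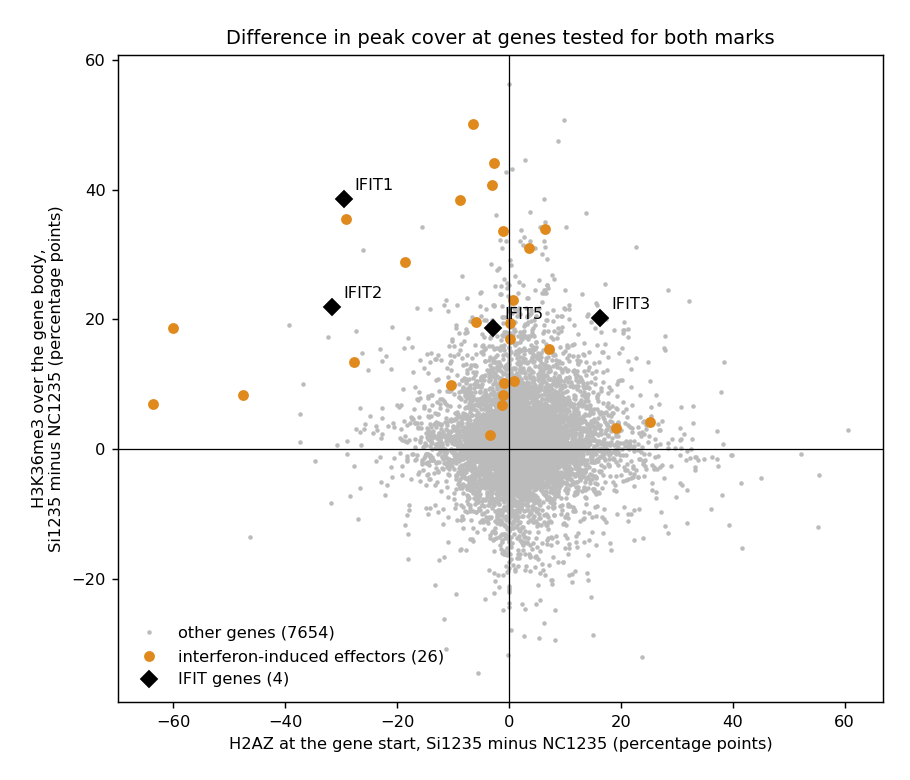
Difference in H3K36me3 body cover against difference in H2AZ start cover (points, Si1235 minus NC1235), 1 point per gene tested for both marks, with effectors and IFIT genes marked. IFIT1 and IFIT2 lie at higher H3K36me3 and lower H2AZ, and IFIT3 and IFIT5 at higher H3K36me3 with H2AZ differences of 16.3 and -2.83 points.

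Genes whose cover over the 4 libraries of a mark lay nearest to the mean profile of the IFIT genes were named by Euclidean distance in points. For H3K36me3, where the IFIT mean was 54.4% and 50.0% in Si1235, against 32.1% and 22.7% in NC1235, these were GCSH (2.26), MED19 (2.78) and VPS28 (4.21). GCSH had 56.1% and 48.6% in Si1235, against 32.6% and 23.0% in NC1235. For H2AZ they were C16orf86 (3.27), CDC42EP5 (4.73) and CCNT1 (4.77), and for H3K27ac SPAG7 (0.231), MBOAT1 (0.609) and LOC101930071 (0.898). None of these is on the pathway lists. The H2AZ mean of the IFIT genes, 57.1% and 54.1% in Si1235, against 74.3% and 60.8% in NC1235, averages differences from -31.6 to 16.3 points. IFIT1 itself had 27.2% and 19.1% in Si1235, against 65.6% and 39.7% in NC1235, so nearness to that mean is not likeness to each IFIT gene.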

How the data were processed

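The submitters' processing notes name hg38, Bowtie2 2.2.9 and MACS2, and list HTSeq 2.0.3 and DESeq2 1.22.2 with no role. Peak calling settings, controls, the MACS2 version and how reads shared between IFIT paralogs were placed are not given in the sources used here. Each of the 15 lists comes from 1 library, and 2 inputs were not used here. The authors' lists give each peak a fold enrichment (a ratio to local background), a −log10 p-value and a −log10 q-value, all at least 2.00 for q, so the lists hold only peaks past that threshold.

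From these, cover percents were computed per library over gene bodies of at least 2 kb (H3K36me3) or 1 kb either side of the start. Strand came from RefSeq for 27197 genes. For others, including IFIT2, the start was the end with more cover of the other promoter marks, which gave the RefSeq end in 89.7 to 90.1% of checked genes. Genes reaching a mean cover of 5% were fitted with limma 3.58.1 (R 4.3.3, intensity trend, no replicate term, two-sided, Benjamini-Hochberg over all genes of a mark, threshold 0.05), a step tested on simulated data. The simulated cover had the same spread at every gene and no floor or ceiling, unlike the real cover. It therefore checks that the step runs and does not show how well real differences are found. Weak-peak pileups were solved on 1500 peaks per library. A pileup was called whole where a whole number of reads gave the listed −log10 p-value within 0.002.

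The IFIT genes and the gene lists were chosen with earlier results of these data known. Named pathway genes are those past the threshold and, per mark, the 3 largest differences with arms apart, and upstream genes named beside them were chosen after their values were seen. Alternatives were other windows, a stricter q-value, equal numbers of top peaks, no filter, quantile normalization, a replicate term and each library left out.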

Additional observations from a re-analysis of the deposited data

How the results depend on the processing

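Of the single-gene differences, H3K36me3 kept its direction in all 28 alternative values. Of these, 27 lay within the spread between replicates, and IFIT5 moved to 24.2 points with the stricter q-value. Leaving out 1 library cannot move a difference past that spread, nor reverse it where arms do not overlap, so those H3K36me3 outcomes were fixed. Only the stricter q-value, equal numbers of top peaks and bodies extended by 1 kb were free to differ. H3K27ac reversed in 0 of 32, but IFIT3, at 0 points, could not reverse, nor could the others with a library left out. With a 0.5 kb window all 4 genes differed by 0 in H3K27ac. H2AZ reversed in 4 of 40: IFIT3 to -5.30 points with a 0.5 kb window and -6.35 after the start alone, IFIT5 to 0.35 without NC1235 replicate 1 (range -6.00 to 0.35 over each library left out), and IFIT2 to 4.15 before the start alone. H3K9ac at IFIT5 became 4.26 with a 2.5 kb window. The cause was not tested. With a 2.5 kb window the H2AZ median was -7.51 and the H3K27ac median 11.4 points; with 0.5 kb the H3K27ac median was 0. Leaving out each library gave H2AZ medians of -19.4 to -8.13 (-8.13 without NC1235 replicate 1), H3K27ac medians of 2.45 to 4.95 and H3K36me3 medians of 15.8 to 27.6.

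Counts over all genes depended more on the settings. The 68 genes called for H3K27ac became 12 and 4 with 0.5 and 2.5 kb windows, 0 with the replicate block, and 125 to 313 with each library left out, and the 1 pathway gene became 0, 0, 0 and 0 to 5. Its even split of 34 higher and 34 lower turned with the library left out: 7 higher and 255 lower when Si1235 replicate 1 was dropped, 4 higher and 121 lower for its replicate 2, 307 higher and 6 lower when NC1235 replicate 1 was dropped, and 228 higher and 3 lower for its replicate 2. For H3K36me3, 0 calls became 93 with quantile normalization (10 in the pathway) and 38 to 190 with each library left out (1 to 16 in the pathway), most without NC1235 replicate 1. A lone library is then assumed to vary like the other arm. H2AZ calls were 0 in every alternative, where 1031 genes had an unadjusted p under 0.05. The block is a number only: deviations of same-numbered libraries correlated at 0.180 (H2AZ), 0.0601 (H3K27ac) and 0.296 (H3K36me3) over only 2 pairs. With 2 libraries per arm and no read counts, precision is limited by the number of libraries, and cover near 0 or 100% cannot show further change.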
